A study of Mus musculus with 30 samples.

Results

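Adipocytes given pNaKtide (0.7 µM) and no other agent were compared with control adipocytes, as 5 libraries of each group out of 30 libraries in 6 groups. The 10 libraries were chosen by their labels alone, the raw count columns named pNaKtide or Control with replicates 1 to 5, and no measured value entered the choice. Both groups were 3T3-L1 cells, 1 mouse preadipocyte line, kept for 5 days in adipogenic medium with insulin, dexamethasone, isobutylmethylxanthine and indomethacin, so control cells carried all of these agents as well. The other 4 groups received IS (indoxyl sulphate, 100 µM) or oxLDL (oxidized low density lipoprotein, 50 µg/mL), each with and without pNaKtide. The labels give 5 days of treatment, whereas the methods of the study give daily dosing over a shorter time. The labels name 3T3 cells as the source, although their extraction protocol speaks of adipose tissue, and they do not say whether the 5 libraries of a group came from separate cultures, so p-values measure the spread between these libraries, which may be technical.

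pNaKtide is a cell-permeable form of NaKtide, a peptide taken from the alpha subunit of the Na,K-ATPase. The Na,K-ATPase exchanges sodium for potassium across the plasma membrane and also binds the tyrosine kinase Src, and the peptide binds Src and blocks it. Signaling from the pump through Src to the EGF receptor, Ras and ERK is described as a loop that amplifies oxidants, and in adipocytes it has been linked with inflammation and lipid storage. The comparison asks what the peptide does to the transcriptome of adipocytes that were given no oxidant or uremic stress.

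pNaKtide alone was followed by very few measurable changes. Of 20139 genes tested, 1 passed a BH-adjusted p-value of 0.1 in edgeR, which is 0.00497% of the genes tested. This gene was Clca3a1, a member of the family of calcium-activated chloride channel regulators, and it fell by 0.61 on the log2 scale. No gene rose past the threshold in edgeR. At an unadjusted p-value of 0.05 there were 1233 genes (6.12%), 522 higher (2.59%) and 711 lower (3.53%), and DESeq2 called 57 genes at an adjusted p-value of 0.1 (0.283%), of which 18 were higher and 39 lower. DESeq2 gave an adjusted p-value to 6083 of the 20139 genes, and the others could not be called by it whatever their change.

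The libraries were of similar depth, but some stood apart from their own group. Total counts were 10104438 to 13219298 in control libraries and 8384882 to 11090548 with pNaKtide. Control replicate 1 scored -25.8 on the first principal component of log2 CPM, which held 64.4% of the variance over the 30 libraries, and the other 4 controls scored 6.47 to 29.9. The pNaKtide libraries scored -5.36 (replicate 3) to 36.6 (replicate 2). On the second component (6.20% of the variance), pNaKtide replicates 1 and 2 scored -12.4 and -12.4, and replicates 4 and 5 scored 16.1 and 18.3. Chi-square per degree of freedom between counts of control replicate 1 and each other control was 20.9 to 36.6. It was 1.76 to 10.3 among the other controls. Among pNaKtide libraries it was 1.35 for replicates 1 and 2, 1.37 for replicates 4 and 5, and 13.4 to 17.2 for every other pair. Replicates 1 and 2 were thus close to each other, as were 4 and 5, while standard errors, intervals and p-values count 5 separate libraries. No 2 libraries of a group agreed within sampling noise. pNaKtide replicate 2 held 562 counts of 28 intestinal epithelial markers, a list written after these values were seen, and replicate 4 held 101. The other libraries with pNaKtide alone held 3 to 11, the controls 5 to 11, and the other groups 3 to 40. In replicate 2 these included 78 counts of Fabp2, the intestinal fatty acid binding protein, and 36 of Zg16, a goblet cell lectin, each with 0 counts in all 5 controls. No test is given for these markers, since they were picked for their counts in that library and passed the count filter mainly through it. None of the 28 reached a mean log2 CPM of 1. Of the 19 with enough counts, 18 are nonetheless counted among the 522 genes higher at an unadjusted p-value of 0.05 (edgeR). Their part in the other results was not tested. The adipocyte markers were abundant in all 10 libraries (summed CPM 16165 to 22867), and of 8 endothelial markers only Vwf and Pecam1 had enough counts to be tested, with a summed CPM of at most 0.739.

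**Figure D1:**
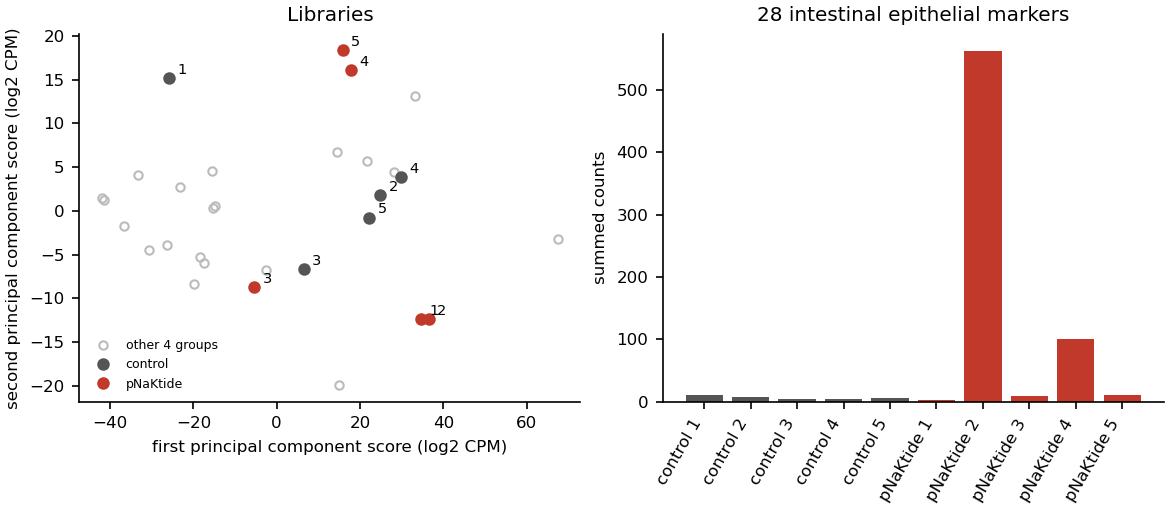
Left, scores of the 30 libraries on the first (horizontal) and second (vertical) principal component of log2 CPM, with control libraries in grey, pNaKtide libraries in red, the replicate number beside each and the other groups as open circles; control replicate 1 sits at -25.8, left of the other controls at 6.47 to 29.9. Right, bars give the summed counts of 28 intestinal epithelial markers per library, 562 in pNaKtide replicate 2 and 101 in replicate 4, against at most 11 in the other 8.

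Clca3a1 (ENSMUSG00000056025, chr3:144729677-144760977 of GRCm38, minus strand) stood at 103, 76.8, 83.7, 73.0 and 68.4 CPM in control replicates 1 to 5. In pNaKtide replicates 1 to 5 it stood at 49.9, 48.4, 63.0, 53.1 and 50.3 CPM. All 5 pNaKtide libraries lay below all 5 controls, with control replicate 1 the highest and pNaKtide replicate 3 the nearest to the controls. The means were 81.0 ± 13.5 and 52.96 ± 5.87 CPM (SD, n = 5 each), and the log2 fold change of -0.61 had a standard error of 0.11, a 95% interval of -0.84 to -0.39 and a BH-adjusted p-value of 0.0814 (edgeR). The groups did not overlap in 188 of the tested genes (0.934%), 70 higher (0.348%) and 118 lower (0.586%). The call was lost, with BH-adjusted p-values of 0.154 to 0.7105 (edgeR), when any of control replicates 1, 2 or 3 or pNaKtide replicates 1, 2, 4 or 5 was left out, while the log2 fold change stayed between -0.68 and -0.51. DESeq2 gave an adjusted p-value of 0.000327. In edgeR the call was also lost when only the 10 libraries were fitted (BH-adjusted p-value 0.999), with scaling by library size only (0.268), after thinning to the smallest library (0.129), with more than 14 counts in every library (0.115) and with filterByExpr (0.108).

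Clca3a2 (ENSMUSG00000028262, chr3:144796559-144819494, minus strand) is the next gene of the same family along the chromosome and nearly a copy of Clca3a1. It stood at 13.87, 12.01, 10.41, 10.13 and 12.29 CPM in control replicates 1 to 5 and at 4.74, 8.32, 8.87, 8.72 and 6.26 CPM in pNaKtide replicates 1 to 5. The groups did not overlap here either, and the log2 fold change was -0.66 (SE 0.16), with an unadjusted p-value of 0.000167 and a BH-adjusted p-value of 0.322 (edgeR). Per length, in the deposited FPKM values, Clca3a1 stood at 20.5 ± 3.47 in control cells and Clca3a2 at 2.92 ± 0.383 (SD, n = 5 each).

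The coding sequences of these genes are shown because counts of either gene rest on reads that can fit both. Each is 2706 bases long in the GENCODE M21 transcripts, and they differ at 79 bases, an identity of 97.1%. Of the 3475 windows of 50 bases in the Clca3a1 transcript, the length of 1 read of a pair, 820 (23.6%) are found letter for letter in that of Clca3a2. The stretch below runs from coding base 873 to 1172, over exons 6 and 7 of both genes (chr3:144751950-144754819 for Clca3a1 and chr3:144810662-144813541 for Clca3a2, introns included, minus strand). Capitals mark the 3 bases that differ, and 242 bases in a row are identical. How reads that fit both were counted is not given in the sources used here, so the split of counts between the genes is uncertain.
Clca3a1: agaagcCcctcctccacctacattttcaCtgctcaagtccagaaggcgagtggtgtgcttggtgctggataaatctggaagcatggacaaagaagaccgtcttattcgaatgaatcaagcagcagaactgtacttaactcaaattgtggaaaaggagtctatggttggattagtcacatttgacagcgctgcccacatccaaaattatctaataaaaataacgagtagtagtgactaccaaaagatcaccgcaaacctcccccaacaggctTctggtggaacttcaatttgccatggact
Clca3a2: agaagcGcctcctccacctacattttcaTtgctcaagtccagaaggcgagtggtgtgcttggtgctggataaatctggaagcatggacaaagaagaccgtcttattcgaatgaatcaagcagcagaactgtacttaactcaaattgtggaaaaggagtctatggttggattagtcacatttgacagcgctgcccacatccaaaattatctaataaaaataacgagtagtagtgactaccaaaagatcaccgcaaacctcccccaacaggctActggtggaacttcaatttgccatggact

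**Figure D2:**
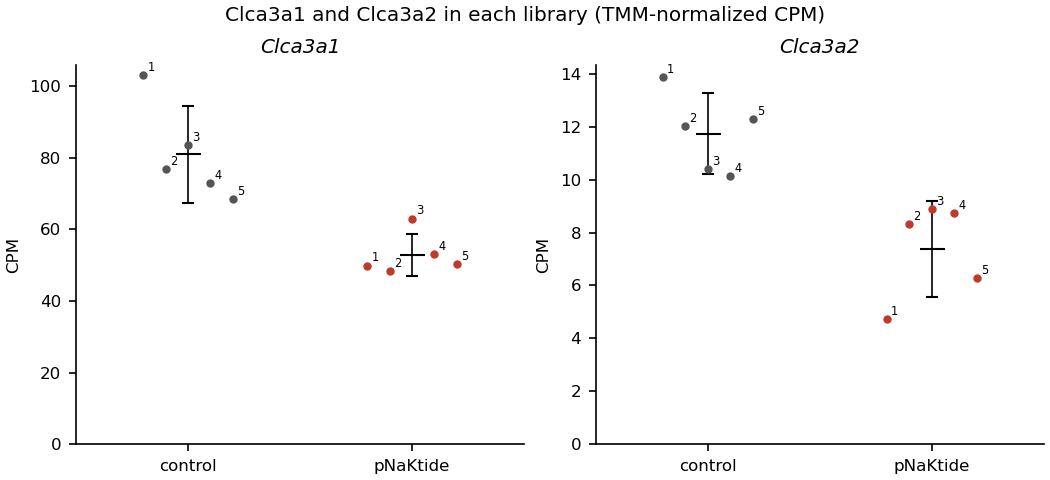
TMM-normalized CPM (vertical) of Clca3a1 and Clca3a2 in each control (grey) and pNaKtide (red) library, with the replicate number beside each point and the mean with its SD as black bars (n = 5 each). For Clca3a1 the pNaKtide libraries lie at 48.4 to 63.0 CPM and the controls at 68.4 to 103, and for Clca3a2 at 4.74 to 8.87 and 10.1 to 13.9.

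Changes in other genes were small, and their intervals, which count 5 separate libraries per group, were fairly narrow. Among 12506 genes whose log2 CPM averaged 1 or more over the 10 libraries, the median absolute log2 fold change was 0.097 and the median standard error 0.13. Only Ifit3b and Ifit3, interferon-induced genes, had an absolute log2 fold change above 1. The 95% interval lay inside a 2-fold change in either direction for 12416 genes (99.3%) and inside a 1.5-fold change for 10741 (85.9%). Over all genes tested the median log2 fold change was -0.02, and 46% of genes lay above 0. The second smallest BH-adjusted p-value was 0.322 (edgeR).

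**Figure D3:**
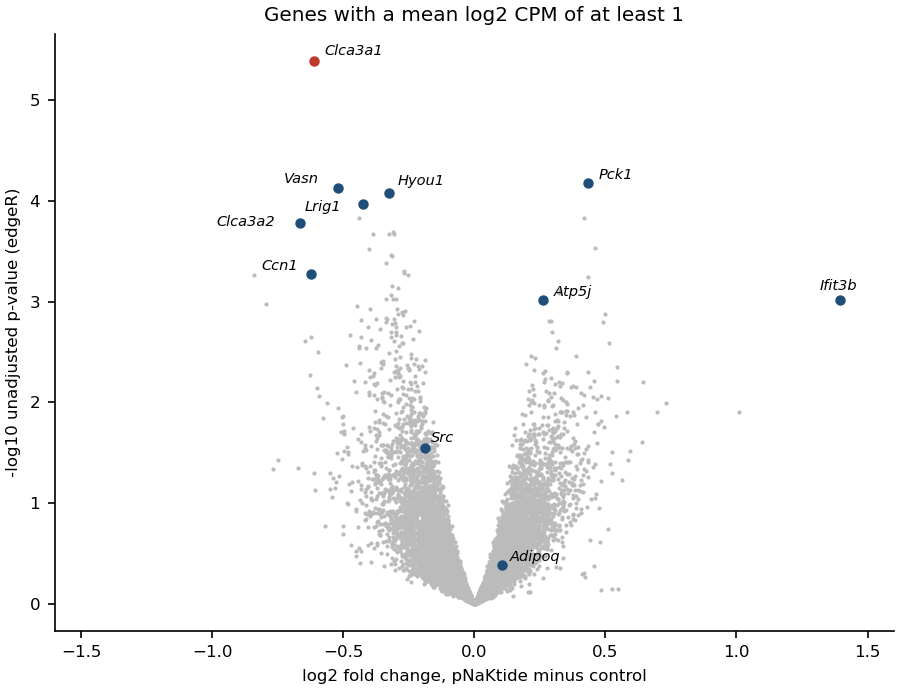
Log2 fold change with pNaKtide (horizontal) against -log10 of the unadjusted edgeR p-value (vertical) for the 12506 genes whose log2 CPM averaged 1 or more. Clca3a1 (red) at -0.61 is the only gene past a BH-adjusted p-value of 0.1, and 10 other named genes are marked in blue, from Clca3a2 at -0.66 to Ifit3b at 1.40.

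Of the genes higher with pNaKtide, Pck1 had the smallest unadjusted p-value. Pck1 encodes the cytosolic phosphoenolpyruvate carboxykinase, which in adipocytes makes glycerol for triglycerides. It stood at 13.5, 13.4, 11.7, 13.4 and 12.1 CPM in control replicates 1 to 5 and at 17.7, 18.2, 16.0, 17.0 and 17.8 CPM with pNaKtide, without overlap. Its log2 fold change was 0.43 (SE 0.10), with an unadjusted p-value of 6.64e-05 and a BH-adjusted p-value of 0.322 (edgeR), and DESeq2 gave it no adjusted p-value. In limma-trend on log2(FPKM + 1), Pck1 was past the threshold at an adjusted p-value of 0.0546. Atp5j, a subunit of the mitochondrial ATP synthase, stood at 137, 137, 149, 138 and 135 CPM in the controls and at 180, 175, 173, 157 and 150 CPM with pNaKtide (log2 fold change 0.26, SE 0.07). All pNaKtide values of Atp5j lay above the controls, with replicate 5 at 150 CPM within 1 CPM of control replicate 3. Qdpr, which regenerates tetrahydrobiopterin, stood at 96.2, 116, 108, 118 and 114 CPM in the controls and at 159, 161, 129, 125 and 120 CPM with pNaKtide (log2 fold change 0.33, SE 0.09). Replicates 1 and 2 were the highest and replicates 3 to 5 lay just above the controls.

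Ifit3b had the largest log2 fold change of these 12506 genes, 1.40 (SE 0.38), and its libraries were not alike. Ifit3b stood at 2.63, 1.98, 2.01, 2.32 and 1.04 CPM in the controls and at 2.94, 1.86, 3.80, 8.33 and 9.45 CPM in pNaKtide replicates 1 to 5. Only replicates 4 and 5 stood well above the controls, and replicate 2 lay within their range. Ifit3, its near-identical neighbour on chromosome 19, followed with 3.50, 3.48, 4.07, 9.41 and 12.4 CPM with pNaKtide against 2.18 to 4.33 CPM in the controls (log2 fold change 1.01, SE 0.38), and reads can fit both genes. Of the 12 genes the naming rule took as higher, the others were Arpc1b, a subunit of the Arp2/3 actin complex (0.29), Fam162a, a hypoxia-induced mitochondrial protein (0.29), Hnrnpa0, an RNA-binding protein (0.32), and Haus1, a spindle protein (0.50). Gm7180 (0.42) and Gm13342 (0.49) are annotated as processed pseudogenes, Gm44510 (0.44) is a transcript to be experimentally tested, and Sp3os (0.46) is antisense to Sp3. Reads of the genes they copy or overlap may be among the counts of these 4, and the strand setting of the counting is not given in the sources used here. All 12 missed the threshold in edgeR, with BH-adjusted p-values of 0.322 to 0.515. Atp5j, Hnrnpa0, Arpc1b, Qdpr, Gm44510 and Fam162a were called by DESeq2, with adjusted p-values of 0.00797 to 0.0401, and Gm7180 by limma-trend (0.0546).

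Of the genes lower with pNaKtide, Vasn had the smallest unadjusted p-value after Clca3a1 (7.33e-05, edgeR). Vasn, a cell surface protein that binds TGF-beta, stood at 90.0, 99.0, 88.0, 105 and 97.4 CPM in control replicates 1 to 5 and at 60.4, 60.3, 65.2, 76.1 and 72.4 CPM with pNaKtide (log2 fold change -0.52, SE 0.11). Lrig1, which limits signaling of the EGF receptor family, stood at 568, 506, 632, 508 and 646 CPM in the controls and at 396, 402, 493, 421 and 420 CPM with pNaKtide (log2 fold change -0.42, SE 0.10). In neither gene did the groups overlap, although pNaKtide replicate 3 of Lrig1, at 493 CPM, came near control replicate 2. Lrig3, of the same family, had a log2 fold change of -0.44 (SE 0.10). Thbd, thrombomodulin, stood at 82.8, 83.9, 94.1, 86.0 and 97.3 CPM in the controls and at 59.9, 67.0, 71.9, 74.2 and 66.6 CPM with pNaKtide (log2 fold change -0.39, SE 0.09). Ptk7, a pseudokinase receptor, stood at 45.1, 49.6, 51.9, 49.8 and 61.8 CPM in the controls and at 34.0, 35.4, 36.4, 46.0 and 43.5 CPM with pNaKtide (log2 fold change -0.40, SE 0.10). Thbd did not overlap between the groups, while pNaKtide replicate 4 of Ptk7 lay above control replicate 1.

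Hyou1, an endoplasmic reticulum chaperone induced by hypoxia, stood at 156, 156, 174, 147 and 177 CPM in the controls and at 118, 118, 128, 138 and 144 CPM with pNaKtide. The groups did not overlap, with pNaKtide replicate 5 at 144 CPM just under control replicate 4 at 147 CPM. The log2 fold change was -0.32 (SE 0.07) and the BH-adjusted p-value 0.322 (edgeR), against 0.000327 in DESeq2 and 0.0546 in limma-trend. The remaining genes of the 12 taken as lower were Mpzl1 (-0.31), a substrate and anchor of the phosphatase SHP2, Ncstn (-0.32), the nicastrin subunit of gamma-secretase, Adpgk (-0.30), an ADP-dependent glucokinase, and Extl2 (-0.32), a glycosyltransferase. All 12 but Clca3a1 had a BH-adjusted p-value of 0.322 to 0.395 in edgeR, and Vasn, Lrig1, Thbd, Ptk7, Mpzl1, Ncstn and Adpgk were called by DESeq2, with adjusted p-values of 0.00485 to 0.0267.

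**Figure D4:**
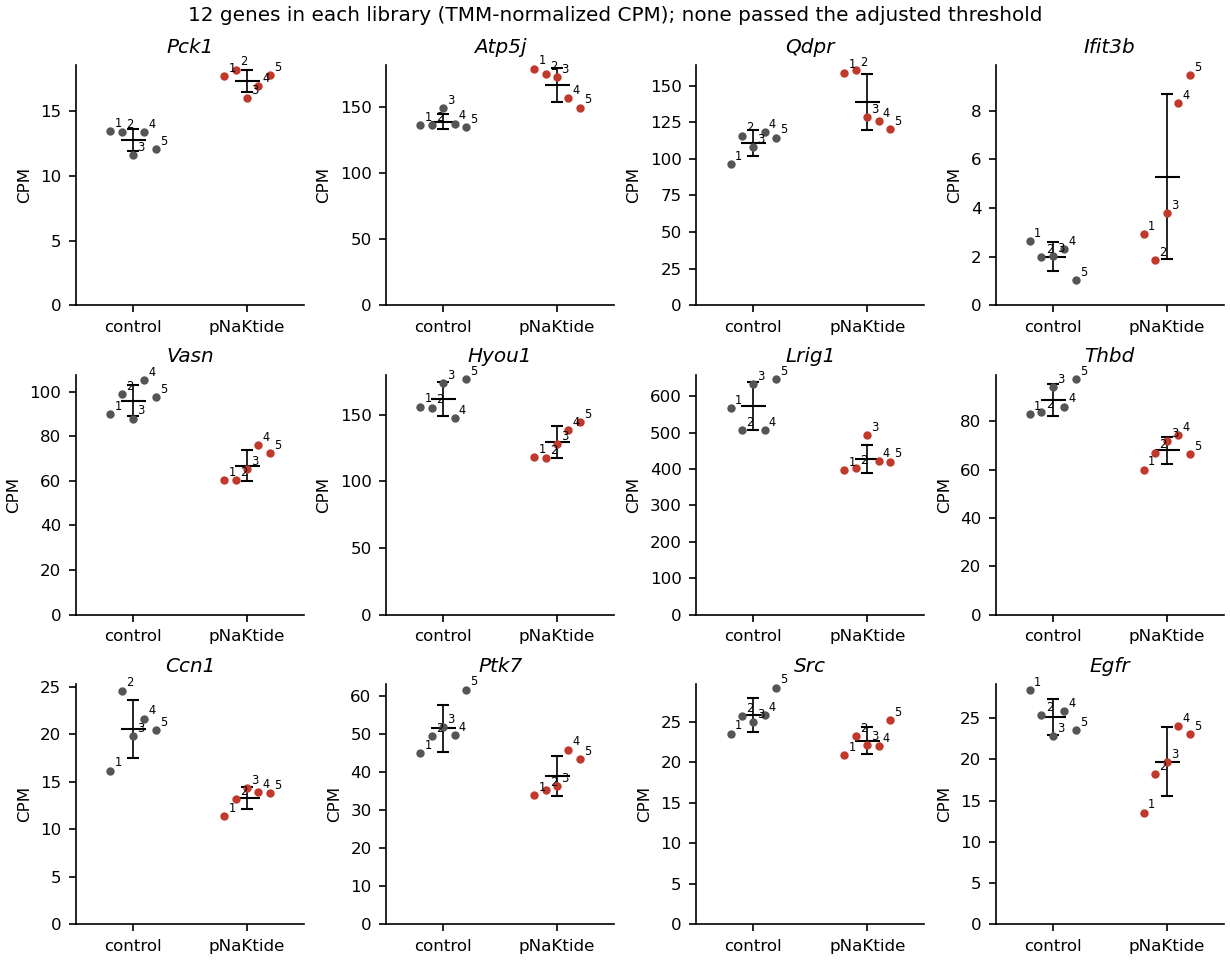
TMM-normalized CPM (vertical, from 0) of 12 genes in each control (grey) and pNaKtide (red) library, with replicate numbers and the mean with its SD as black bars (n = 5 each). None passed a BH-adjusted p-value of 0.1 in edgeR; Pck1 lies at 16.0 to 18.2 CPM with pNaKtide against 11.7 to 13.5, and Ifit3b is high only in pNaKtide replicates 4 and 5, at 8.33 and 9.45 CPM.

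The target of the peptide came first among the pathways. No member of the lists of Na,K-ATPase subunits or Src family kinases passed the threshold in edgeR. Atp1b3, a beta subunit, stood at 48.3 ± 3.22 FPKM in control cells and 50.5 ± 2.22 FPKM with pNaKtide (SD, n = 5 each), with a log2 fold change of 0.05 (95% interval -0.09 to 0.19). Atp1b1 was low, at 1.84 ± 0.308 CPM in the controls and 2.50 ± 0.706 CPM with pNaKtide (log2 fold change 0.43, SE 0.21). Of 12 members tested, 1 was higher (2.59% of all genes) and 1 lower (3.53%) at an unadjusted p-value of 0.05, and the median log2 fold change was 0.05.

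Src stood at 23.5, 25.7, 24.9, 25.9 and 29.2 CPM in the controls and at 20.9, 23.2, 22.2, 22.0 and 25.2 CPM with pNaKtide. The groups overlapped, with pNaKtide replicate 5 inside the range of the controls. The log2 fold change of Src was -0.19 (SE 0.08, 95% interval -0.36 to -0.02), with an unadjusted p-value of 0.0287 and a BH-adjusted p-value of 0.752 (edgeR). Among the other kinases of the family, Yes1 (-0.11, 95% interval -0.62 to 0.40) and Fyn (-0.10, -0.40 to 0.20) had wider intervals, and Csk, which phosphorylates Src family kinases and switches them off, was at -0.15 (-0.38 to 0.08). Yes1 stood at 19.4 CPM in control replicate 1 and at 7.91 to 11.5 CPM in the other controls, and without control replicate 1 its log2 fold change was 0.19. Of 18 Src family kinases and regulators tested, Src alone had an unadjusted p-value under 0.05, a share near the 6.12% of all genes. Of the 18, 4 lay above 0 (46% of all genes) and 14 below, and the median was -0.10. In an unplanned fit without control replicate 1 and pNaKtide replicate 2 the median was -0.01, with 9 members on each side. None of 9 caveolae coat genes, which build the membrane pits where the pump and Src are found, had an unadjusted p-value under 0.05, and Cav1 was at -0.06 (95% interval -0.27 to 0.15).

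Downstream of Src, 26 genes of the EGFR, Ras and ERK cascade were tested and 3 had an unadjusted p-value under 0.05, all lower (3.53% of all genes). Among them were Egfr (-0.35, SE 0.13) and Erbb2 (-0.27, SE 0.10), and the list median was -0.03. Egfr stood at 28.4, 25.4, 22.8, 25.9 and 23.5 CPM in the controls and at 13.5, 18.2, 19.6, 24.0 and 23.1 CPM with pNaKtide, where replicates 4 and 5 lay within the range of the controls. A list of receptor tyrosine kinases, added after values were seen, had 34 genes tested, 8 lower (3.53% of all genes) and 0 higher (2.59%) at an unadjusted p-value of 0.05, and a median of -0.18. The list was written with values of these data known, so its counts are no separate support for a change. Besides Ptk7, Egfr and Erbb2 the 8 were Pdgfrb (-0.43), Fgfr1 (-0.24), Fgfr3 (-0.42), Epha2 (-0.60) and Ephb4 (-0.23), and DESeq2 called Ptk7 and Fgfr1. The summed CPM of these receptors was 1597, 1568 and 1715 in pNaKtide replicates 1 to 3 and 2027 and 2022 in replicates 4 and 5, against 1944 to 2163 in the controls. Replicates 4 and 5 thus lay among the controls, and replicates 1 to 3 below them.

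Immediate early genes are switched on by ERK within minutes. Of 40 tested, 14 lay above 0 (46% of all genes) and 26 below, 7 had an unadjusted p-value under 0.05, all lower (3.53% of all genes), and the median was -0.11. Ccn1, a matricellular protein, stood at 16.2, 24.6, 19.8, 21.6 and 20.4 CPM in the controls and at 11.4, 13.2, 14.3, 13.9 and 13.8 CPM with pNaKtide, without overlap (log2 fold change -0.62, SE 0.16, BH-adjusted p-value 0.431 in edgeR). Zfp36, which destabilizes cytokine mRNA, stood at 46.4 to 67.2 CPM in the controls and 43.1 to 56.5 CPM with pNaKtide (-0.34, SE 0.10). The transcription factor Egr1 was at -0.29 (SE 0.08), and the others were Spry4 (-0.36), Ier2 (-0.38), Klf10 (-0.27) and Spry2 (-0.27). DESeq2 called Egr1 alone of this list. Errfi1, a feedback inhibitor of the EGF receptor, stood at 201 to 217 CPM in the controls and 151 to 184 CPM with pNaKtide, without overlap (-0.31, SE 0.09), and was called by DESeq2 (adjusted p-value 0.0334) but not by edgeR (0.500).

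Matrix genes had the lowest median of the lists with more than 20 genes tested. Of 48 collagen and matrix genes, 5 lay above 0 (46% of all genes) and 43 below, 9 had an unadjusted p-value under 0.05, all lower (3.53% of all genes), and the median log2 fold change was -0.24. No gene of the list passed the threshold in edgeR, and DESeq2 called Col4a5, a chain of basement membrane collagen (-0.43, SE 0.13). Fn1, fibronectin, stood at 936 ± 115 CPM in control cells and 663 ± 240 CPM with pNaKtide (SD, n = 5 each; log2 fold change -0.50, SE 0.20), and Col5a2, a fibrillar collagen chain, at 634 ± 15.4 and 520 ± 89.0 CPM (-0.29, SE 0.10). The SD of both was larger with pNaKtide than in the controls. The summed CPM of the list was 40875 to 48331 in the controls, 31600 to 34529 in pNaKtide replicates 1 to 3 and 48291 and 49476 in replicates 4 and 5. Replicates 1 to 3 therefore lay below every control, whereas replicate 5 lay above them. Among members above 0, Bgn, biglycan, had the smallest unadjusted p-value, at 0.06 (SE 0.14).

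Preadipocyte and progenitor identity genes had a median of -0.18, with 5 of 22 lower (3.53% of all genes) and 1 higher (2.59%) at an unadjusted p-value of 0.05. Pdgfrb, a growth factor receptor of adipocyte progenitors, stood at 96.9, 102, 85.0, 105 and 96.8 CPM in the controls and at 59.8, 58.3, 64.0, 86.9 and 90.4 CPM with pNaKtide (-0.43, SE 0.13). Again replicates 4 and 5 lay within the range of the controls. The others lower were Fst (-0.36), Cd44 (-0.27), Sox9 (-0.35) and Twist1 (-0.19). The gene higher was Dpp4, which stood at 0 CPM in the controls and at 0.342 ± 0.712 CPM (SD, n = 5) with pNaKtide, and the gut epithelium, whose transcripts were found in pNaKtide replicate 2, also expresses it.

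The adipocyte state was close to that of control cells. None of the 14 adipocyte markers passed the threshold in edgeR, 1 was higher at an unadjusted p-value of 0.05 (2.59% of all genes), and the median log2 fold change was 0.08. Pparg, the master regulator of fat cell formation, stood at 138, 171, 184, 153 and 182 CPM in the controls and at 184, 188, 190, 149 and 159 CPM with pNaKtide. Its log2 fold change was 0.07, with a 95% interval of -0.11 to 0.24. Adipoq, the hormone adiponectin, stood at 818, 1033, 1206, 1096 and 1199 CPM in the controls and at 1348, 1349, 1169, 948 and 937 CPM with pNaKtide. The log2 fold change of Adipoq was 0.10 (95% interval -0.15 to 0.36), and pNaKtide replicates 1 and 2 lay above all controls. Fabp4, the fatty acid binding protein of adipocytes, was at 0.18 (-0.02 to 0.39), and Lpl, the lipase that frees fatty acids from lipoproteins, at 0.07 (-0.11 to 0.25). Plin1, which coats the lipid droplet, was at 0.00 (-0.19 to 0.19), the fatty acid transporter Cd36 at 0.00 (-0.29 to 0.29) and the transcription factor Cebpa at -0.11 (-0.34 to 0.12). The marker with an unadjusted p-value under 0.05 was Retn, resistin, which stood at 127 to 185 CPM in the controls and 150 to 243 CPM with pNaKtide (0.28, SE 0.14). Lep, leptin, had 0 to 0.410 CPM in all 10 libraries, and its log2 fold change of -0.49 had a 95% interval of -2.04 to 1.07.

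Lists of fat cell metabolism had medians near that of all genes. No member passed the threshold among 24 lipid droplet and lipolysis genes (median 0.07), 36 genes of fatty acid uptake and triglyceride synthesis (0.04), 34 of fatty acid oxidation and peroxisomes (0.05), 21 adipokines (-0.05), 26 of cholesterol synthesis (0.05), 19 of cholesterol efflux and scavenging (-0.06) or 13 thermogenic genes (0.00). Hadha, a subunit of the mitochondrial trifunctional protein of fatty acid oxidation, stood at 461 to 519 CPM in the controls and 533 to 642 CPM with pNaKtide, without overlap (log2 fold change 0.21, SE 0.09, unadjusted p-value 0.0232 in edgeR, 0.752 adjusted). Vldlr, a receptor for triglyceride-rich lipoproteins, was at -0.24 (SE 0.10). Of 28 adipogenic transcription factors, Stat5a (-0.19), Klf5 (-0.38) and Stat5b (-0.16) had an unadjusted p-value under 0.05, where 3.53% of all genes were lower, and the median was -0.05. Of 32 insulin signaling genes, 7 lay above 0 (46% of all genes) and 25 below, with Inppl1 (-0.21, SE 0.07), a lipid phosphatase that opposes insulin and was called by DESeq2, Tbc1d1 (-0.23) and Rptor (-0.18) at an unadjusted p-value under 0.05.

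No gene of the inflammatory and oxidant lists passed the threshold in edgeR. Tnf and Il1b had 3 counts each and Il6 17 counts over all 30 libraries, so a change in them was not detectable at this depth. Ccl2, the chemokine MCP-1, stood at 1.04 to 1.74 CPM in the controls and 0.59 to 1.36 CPM with pNaKtide (log2 fold change -0.41, 95% interval -1.07 to 0.25). Of 33 genes of the TLR4 and NF-kappaB pathway, 5 were lower (3.53% of all genes) and 0 higher (2.59%) at an unadjusted p-value of 0.05, with a median of -0.06; the lowest unadjusted p-value was that of Tlr2 (-0.35, SE 0.14), and Tlr4 was at -0.11 (95% interval -0.50 to 0.29). Chuk, an IkappaB kinase, was at -0.18 (-0.65 to 0.30), and pNaKtide replicate 3, at 49.6 CPM, stood apart from the other pNaKtide libraries at 22.7 to 27.0 CPM. Of 33 interferon response genes 1 was higher and 2 lower (median -0.08), of 43 Nrf2 targets and antioxidant enzymes 3 were higher, among them Txn1, thioredoxin (0.17), and 0 lower (0.06), and of 7 NADPH oxidase genes 1 was lower (-0.09). Further genes that the study followed had log2 fold changes of -0.09 (Creb1, -0.49 to 0.30), 0.00 (Prkca, -0.23 to 0.23), -0.03 (Cdkn1a, -0.25 to 0.19) and 0.60 (Nos3, -0.25 to 1.45), the values in brackets being 95% intervals.

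Genes of the ribosome and of the respiratory chain lay mostly above 0 by a small amount. Of 84 cytosolic ribosomal protein genes, 77 lay above 0 (46% of all genes), 12 had an unadjusted p-value under 0.05, all higher (2.59% of all genes), and the median log2 fold change was 0.18. None passed the threshold in edgeR. Rps12 stood at 63.6, 66.9, 60.5, 74.7 and 62.0 CPM in the controls and at 93.4, 88.5, 68.3, 87.8 and 81.4 CPM with pNaKtide, where replicate 3 lay among the controls (0.36, SE 0.12). The summed CPM of the list was 25198 in control replicate 1, 32151 to 38918 in the other controls and 31645 to 42794 with pNaKtide, so that the groups overlapped. In the unplanned fit without control replicate 1 and pNaKtide replicate 2 the median was 0.05, with 59 genes above 0.

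Mitochondrial ribosomal protein genes (82 tested, 9 higher, median 0.10), nuclear genes of respiratory complex I (41, 5 higher, 0.14) and of complexes II to V (54, 7 higher, 0.16) had no member lower at an unadjusted p-value of 0.05, against 2.59% of all genes higher and 3.53% lower. Cox5a, a cytochrome c oxidase subunit (0.31, SE 0.10), Atp5j and Mrps17, a protein of the small mitochondrial ribosomal subunit (0.22, SE 0.07), were called by DESeq2. In the unplanned fit without control replicate 1 and pNaKtide replicate 2 the medians of these lists were -0.01, 0.04 and 0.01. Of 15 transcripts of the mitochondrial genome, 3 were higher (median 0.17), led by mt-Nd5 (0.31, SE 0.13), which stood at 1524 to 2709 CPM in the controls and 2469 to 2753 CPM with pNaKtide.

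Gene length moved with these lists, and its part in them was not tested beyond a fit without its trend. The median log2 fold change was 0.09 in the shortest quartile of the 12506 genes (transcripts of at most 1654 bases) and -0.08 in the longest (at least 4580 bases). The median transcript length was 1054 bases for cytosolic ribosomal protein genes and 864 bases for complexes II to V, but 5456 bases for matrix genes and 4880 bases for receptor tyrosine kinases, the list added after values were seen. When trends over GC content and length were removed library by library, the medians were 0.13, 0.10, -0.18 and -0.12 in that order, and edgeR called Clca3a1 (BH-adjusted p-value 0.000696) and Agrn (0.0193), the matrix proteoglycan agrin, at -0.40, which was named after its value was seen.

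**Figure D5:**
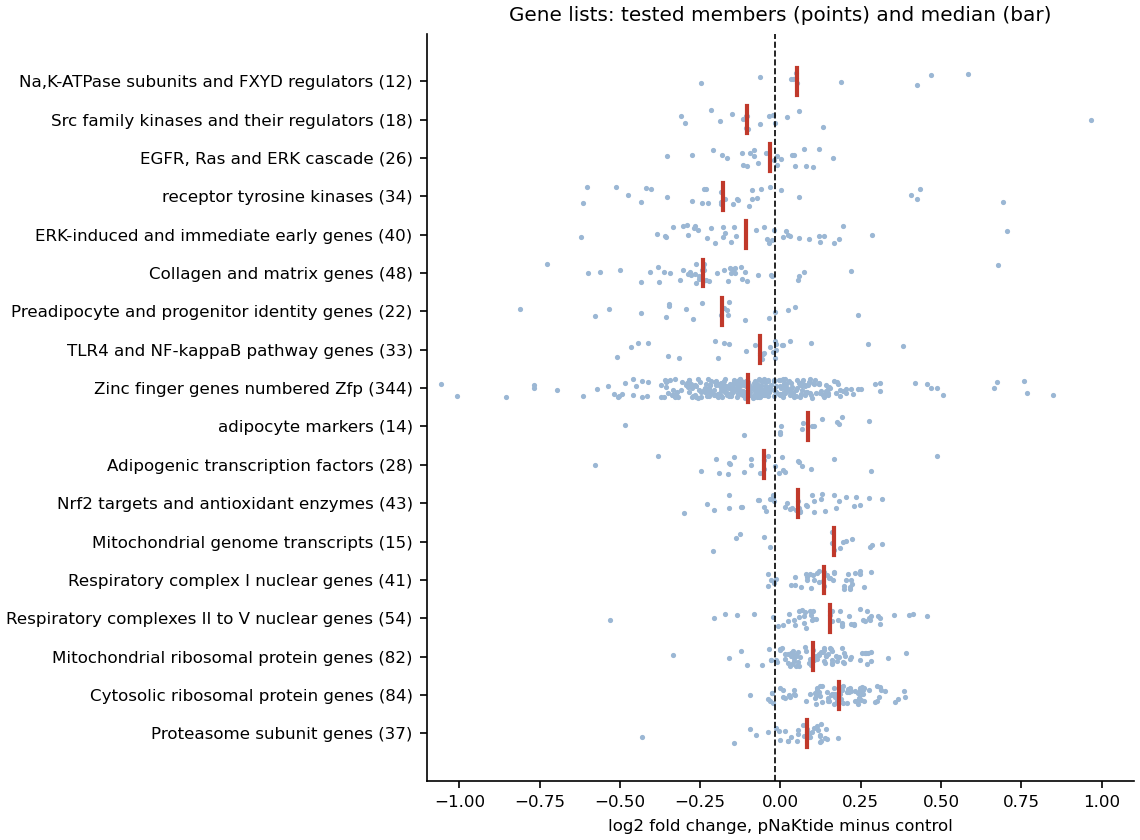
Log2 fold change with pNaKtide (horizontal) of the tested members of 18 gene lists, as points, with the number tested in brackets, the list median as a red bar and the median of all 20139 genes, -0.02, as a dashed line; 18 points beyond 1.1 in either direction are not drawn. Medians run from -0.24 for collagen and matrix genes to 0.18 for cytosolic ribosomal protein genes, and no point drawn passed the threshold in edgeR. The list of receptor tyrosine kinases was added after values were seen.

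The other lists held no gene past the threshold in edgeR, and their counts at an unadjusted p-value of 0.05 stand against 2.59% of all genes higher and 3.53% lower. Of 29 genes of ER chaperones and the unfolded protein response 3 were lower at an unadjusted p-value of 0.05, Hyou1, Pdia4 (-0.31) and Syvn1 (-0.19), and 1 higher, Ddit3 (0.24), with a median of -0.07. Hyou1 and Pdia4, both chaperones of the ER lumen, were called by DESeq2. Of 29 ATF4 targets 1 was higher, the stress protein Nupr1, which stood at 59.1 to 69.2 CPM in the controls and 69.3 to 80.6 CPM with pNaKtide (0.27, SE 0.10), and 1 lower (median 0.01). Of 26 p53 targets 3 were lower, led by the death receptor Fas (-0.47, SE 0.14), and 0 higher (-0.05). Of 32 glucocorticoid and cAMP responsive genes 1 was higher, Pck1, and 2 lower, Errfi1 and Sgk1 (-0.07). Of 43 genes of replication and mitosis 1 was lower (-0.06), and of 20 clock genes 1 was higher and 1 lower (-0.08). Of 344 numbered zinc finger genes 3 were higher and 13 lower (-0.10), the latter a share near that of all genes, and of 60 histone genes 2 were higher and 1 lower (0.12). Of 62 translation initiation factors 2 were higher (0.01), of 10 protein kinase C isoforms 1 was higher (-0.03) and of 8 aryl hydrocarbon receptor genes 1 was lower (-0.13). None of 27 contractile genes (-0.04), 37 proteasome subunits (0.08), 12 abundant noncoding RNAs (0.05), 6 macrophage markers (-0.05), 2 endothelial markers (-0.59) or 3 muscle markers (-0.11) had an unadjusted p-value under 0.05, and of 10 fibroblast markers Pdgfrb alone was lower (-0.19).

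The design also allows the change with pNaKtide alone to be set against its change in stressed cells, as a test of the difference between the changes. Against IS-treated cells no gene differed at a BH-adjusted p-value of 0.1 in edgeR (0%; lowest 1.00), with 619 genes at an unadjusted p-value under 0.05 and none called by DESeq2. IS replicate 4 scored 28.2 on the first principal component, against -36.7 to -23.2 in the other IS libraries. No fit left out IS replicate 4, and the lack of calls does not show that the changes were alike. Against oxLDL-treated cells 4951 genes differed (24.6%), 2575 with the higher change in oxLDL-treated cells and 2376 with the lower. With scaling by library size only the split was 1279 higher and 3991 lower, and the median difference over all genes was -0.23 in place of -0.05. The libraries with oxLDL scored -41.9 to -14.7 on the first principal component and those with oxLDL and pNaKtide 14.5 to 67.5, whereas the control and pNaKtide libraries overlapped on it. The correlation across genes of GC content with a library's deviation from mean log2 CPM was -0.63 to -0.39 with oxLDL. It was 0.19 to 0.63 with oxLDL and pNaKtide. With the trends over GC content and length taken out, 2425 genes differed, 1632 of them among the 4951. Without pNaKtide replicate 3 the count was 2116. Differences of single genes below come from the fit with these trends left in. Leaving out control replicate 1, 2 or 4 gave 7515, 3155 and 2989 genes, and the unplanned fit without both control replicate 1 and pNaKtide replicate 2 gave 7859.

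Clca3a1 was also called lower with pNaKtide in oxLDL-treated cells, and not in IS-treated cells. Its log2 fold change was -0.95 in oxLDL-treated cells (BH-adjusted p-value 3.63e-06, edgeR), from 93.0 ± 3.38 to 48.1 ± 6.99 CPM (SD, n = 5 each), and -0.32 in IS-treated cells, from 104 ± 17.1 to 83.0 ± 4.49 CPM, where the groups overlapped and the BH-adjusted p-value was 1.00 (edgeR). Neither change differed from that with pNaKtide alone past the threshold (difference -0.34, BH-adjusted p-value 0.130, for oxLDL, and 0.29, unadjusted p-value 0.0710, for IS; edgeR). Of the 115 genes taken by the naming rule, 30 differed (24.6% of all genes, a similar share) between pNaKtide alone and pNaKtide with oxLDL. Tlr4 was at -0.11 alone and at -1.09 in oxLDL-treated cells (difference -0.99, BH-adjusted p-value 0.0270, edgeR), Cd36 at 0.00 and -0.73 (-0.73, 0.0263) and Yes1 at -0.11 and -1.53 (-1.42, 0.0225). In the opposite direction, Csk was at -0.15 alone and at 0.42 in oxLDL-treated cells (difference 0.57, BH-adjusted p-value 0.0288, edgeR), and Pnpla2, the lipase that starts triglyceride breakdown, at 0.19 and 0.77 (0.58, 0.0311). Src (difference -0.13, BH-adjusted p-value 0.459, edgeR) and Adipoq (0.34, 0.180) did not pass the threshold.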

How the data were processed

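RNA sequencing (TruSeq stranded mRNA, paired reads of 50 bases) was done on 3T3-L1 adipocytes. The deposited counts per gene were made by the authors with Trimmomatic 0.38, HISAT2 2.1.0 on GRCm38 and GenomicAlignments; the annotation release and strand setting are not given in the paper, labels or file headers. The deposited FPKM values were used for levels per length and 1 alternative. A table normalized by the authors with DESeq2 1.20.0 was not used. Counts of 54232 genes were tested in edgeR 4.0.16 (R 4.3.3): genes with more than 14 counts over the 30 libraries, TMM scaling, robust quasi-likelihood fit of 6 groups, BH-adjusted p-value of 0.1 (common BCV 14.0%). CPM values are TMM-normalized, and errors are SD over 5 libraries. Depth was 8384882 to 13219298 counts. Groups came from the labels. Transcript length, GC content and sequences came from GENCODE M21.

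Named genes were the 12 in each direction past the threshold or, failing that, with the smallest unadjusted p-value (average log2 CPM of 1 or more). A further 26 genes were fixed by name. In each of 39 lists, cell type markers left aside, the member with the smallest unadjusted p-value in each direction was added under the same average. Other members were named after their values were seen. The comparison, the members and the lists were chosen with earlier results of these data known. Alternatives were DESeq2 1.42.0, limma 3.58.1 on log2(FPKM + 1), other scalings and filters, removal of GC content and length trends (mgcv 1.9.3), thinning, a replicate block and leaving out libraries. Leaving out control replicate 1 and pNaKtide replicate 2 together was not planned. Some genes are not reported here. Scripts were tested on simulated data.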

Additional observations from a re-analysis of the deposited data

Results flagged for a closer look

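Among 232 sets of values, each 1 named gene, the depth or the first component score in 1 group, 15 held a library far from the other 4 of its group by Dixon's criterion, which chance gives in about 1 in 20 sets. Control replicate 1 accounted for 8 of them. It was the lowest control for Gm13342 (2.46 CPM), Abhd6 (11.7 CPM), Fdps (66.6 CPM), Hadha (461 CPM), Rpl39 (255 CPM) and Ndufs5 (43.4 CPM), and the highest for Ppargc1a (8.53 CPM) and Cyp1b1 (308 CPM). pNaKtide replicate 3 was the highest of its group for Lrig1 (493 CPM), Chuk (49.6 CPM), Vldlr (137 CPM) and Eif2ak3 (25.3 CPM). Control replicate 3 was the highest for Atp5j (149 CPM) and the lowest for Aen (40.2 CPM), and pNaKtide replicate 4 was the highest for Tef (125 CPM).

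The change with pNaKtide differed between oxLDL-treated cells and cells given no other agent in 4951 genes (BH-adjusted p-value of 0.1, edgeR), which is 24.6% of all genes tested. Of the 115 named genes 30 differed, a share near that of all genes. Both changes were measured in 5 against 5 libraries, and the control libraries were not shared between them. The change was higher in oxLDL-treated cells for 11 named genes, by a log2 difference of 2.82 for Rn7s2, 0.72 for Dbp, 0.58 for Pnpla2, 0.57 for Csk, 0.56 for Eif4ebp1, 0.56 for Fdps, 0.50 for Abhd6, 0.46 for Cebpa, 0.43 for Tagln2, 0.42 for Cdkn1a and 0.39 for Zfp36. For Rn7s2, 1 library with oxLDL and pNaKtide stood at 615 CPM, where the median of its group was 55.4 CPM, and the value without that library was not computed. It was lower for 19, with a log2 difference of -2.32 for Ifit3b, -2.06 for Ifit3, -1.42 for Yes1, -1.11 for Atp1b1, -0.99 for Tlr4, -0.99 for Ppargc1a, -0.96 for Creb1, -0.93 for Chuk, -0.90 for Nox4 and -0.73 for Cd36. The remaining 9 were Prkd3 (-0.53), Pdk4 (-0.53), Col4a5 (-0.52), Cavin2 (-0.47), Eif2ak3 (-0.46), Thbd (-0.40), Eif5b (-0.39), Vldlr (-0.35) and Cyp1b1 (-0.33).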

How the results depend on the processing

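The number of genes past the threshold for pNaKtide alone was 57 in DESeq2, 4 in limma-trend on log2(FPKM + 1) and 2 with the trends over GC content and length taken out. It was 0 with scaling by library size only, with more than 14 counts in every library, with filterByExpr, at a BH-adjusted p-value of 0.05, with only the 10 libraries and after thinning to the smallest library, against 1 in edgeR (1233 at an unadjusted p-value of 0.05). Leaving out libraries gave 0 to 2. The only gene called higher in these fits was Fcgbp, without pNaKtide replicate 3, and it is 1 of the intestinal epithelial markers. The number whose change differed in oxLDL-treated cells was 2707 at a BH-adjusted p-value of 0.05, 2425 with the trends taken out and 2116 to 7859 when libraries were left out (edgeR). The number that differed in IS-treated cells stayed 0 in edgeR, DESeq2 and limma-trend, with IS replicate 4 kept in every fit. The cause of these shifts was not tested.

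Same-numbered libraries did not deviate together (r -0.66 to 0.45 across genes, 2 of 5 pairs over 0.1, 2 of 10 libraries closest to their own number), so the numbers were not taken as pairs. With the replicate block, 1 gene was past the threshold for pNaKtide alone, 5996 for the difference in oxLDL-treated cells and 0 in IS-treated cells.

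Of 1364 log2 fold changes of named genes under other settings, 1308 kept their direction and side of the threshold and 29 turned, all of 5 genes near 0. Creb1 was at 0.035 with the trends over GC content and length taken out. Rac1 was at -0.0309 by library size only and at -0.00106 with at least 1 count required. In the order DESeq2, its size factors in edgeR, more than 14 counts in every library, filterByExpr, replicate block, 10 libraries only, limma-trend, trends taken out and thinning, Prkca was at 0.0137, 0.0155, 0.00475, 0.0105, 0.00563, 0.00447, 0.0157, 0.0795 and 0.0185 and Plin1 at 0.0186, 0.0186, 0.0094, 0.0151, 0.00779, 0.00256, 0.026, 0.0358 and 0.0069. In the same order without the replicate block, Cd36 was at 0.0147, 0.0147, 0.00361, 0.00994, 0.00138, 0.00167, 0.0692 and 0.0111.

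Of 1265 log2 fold changes with libraries left out, 48 turned, in 19 genes whose ranges were -0.288 to 0.301 (Yes1), -0.111 to 0.00559 (Cav1), -0.193 to 0.175 (Creb1), -0.446 to 0.0652 (Chuk), -0.234 to 0.126 (Tlr4), -0.0847 to 0.0966 (Prkca), -0.174 to 0.027 (Cdkn1a), -0.0222 to 0.119 (Pparg), -0.0423 to 0.169 (Adipoq), -0.0946 to 0.079 (Plin1), -0.123 to 0.0696 (Cd36), -0.949 to 0.169 (Lep), -0.0364 to 0.0248 (Rac1), -0.262 to 0.159 (Nox4), -0.0212 to 0.241 (Eif4ebp1), -0.0276 to 0.145 (Bgn), -0.198 to 0.0907 (Prkd3), -0.34 to 0.0509 (Snhg1) and -0.123 to 0.0258 (Ndufs4).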
